A study of Mus musculus with 4 samples.

Results

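The enzymes that build, sulfate and trim glycosaminoglycans were examined in mouse mesothelial cells. Genes were chosen by symbol and not by any measured value: the Chst, Hs3st, Hs6st, Ndst, Ext, Extl, Xylt, Chsy and Sulf families and 14 further single genes. The rule found 53 of the 48425 genes in the deposited table. The series has 1 group of 4 animals and no treatment. Each library is total RNA of freshly isolated peritoneal mesothelium from a C57BL/6 mouse aged 10 weeks. The count columns are labelled WT, for wild type. The cavity of each animal had been filled with 0.25% trypsin and EDTA and kept at 37 °C for 20 min. Sorting took the released cells that lacked CD45 and carried podoplanin and Gpm6a, and ribosomal RNA was removed before sequencing. Library totals were 4090224 to 4569578 estimated counts. With 1 group the data give levels, the order of genes within an animal and the spread between animals, and no contrast of conditions.

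Glycosaminoglycans are long chains of alternating sugars, most of them carried on core proteins at the cell surface and in the matrix. Heparan sulfate and chondroitin sulfate start from the same short linkage sugars and are then polymerised by separate enzymes. Sulfotransferases and epimerases next modify the chains, and the pattern they leave sets which growth factors, chemokines and clotting proteins a chain can bind. Dermatan sulfate is the epimerised form of chondroitin sulfate. The mesothelium is a flat epithelium that lines the body cavities under a sugar-rich coat.

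The sorted population was checked against cell-type markers. All 12 mesothelial markers lay above 1 CPM (counts per 1000000 of the library total) by the test described below, with means of 119 CPM for Bnc1 to 4135 CPM for Upk3b. Of the fibroblast markers 9 of 10 lay above 1 CPM, beside 24.7% of all genes and 50.9% of protein-coding genes. Their summed level was 15103, 22365, 19760 and 14854 CPM in animals 1 to 4. Most of that sum was Dcn at 12889 ± 2116 CPM (SD, n = 4), followed by Col3a1 (2741 CPM), Col1a2 (1141 CPM) and Col1a1 (1040 CPM). The other fibroblast markers had means of 76.0 CPM (Lum) or lower. Pdgfra and Thy1 had 25.5 and 26.5 CPM, and Pi16, at 1.55 CPM, did not pass. Of the 8 endothelial markers Cdh5, Emcn and Cldn5 were at 0 counts in every animal, and the list summed to 388 to 425 CPM, most of it Esam. The macrophage and monocyte list summed to 91.8 to 117 CPM. Cd14, Csf1r and Cd68 lay above 1 CPM by the test, at 52.5, 34.5 and 12.5 CPM. The other genes of that list did not, and Aif1 and Itgam were at 0. The B and T cell list, with Cd79a highest, summed to 1.19 to 7.69 CPM. The smooth muscle and pericyte list, led by Acta2, summed to 87.3 to 213 CPM. In the mast cell list 6 of 7 genes were at 0, Ms4a2 being the exception. Levels in a sorted bulk sample cannot tell fewer cells of a type from less RNA per cell, and the part of fibroblast RNA in the enzyme levels was not tested.

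Of the 53 enzyme genes, 33 (62.3%) lay above 1 CPM by edgeR's one-sided quasi-likelihood test at an adjusted p under 0.05. The background was 24.7% of all genes in the table and 50.9% of 21492 protein-coding genes. The same shares are the background of each count of passing genes given below for a step, family or list. The median level of the 53 genes was 8.39 CPM, against 2.88 CPM over protein-coding genes. Of the 53 genes, 5 exceeded 100 CPM, 17 lay between 10 and 100 CPM, and another 11 that passed lay under 10 CPM. Among the 33 that passed, 32 were above 1 CPM in each of the 4 animals. The exception was Chst15, which was at 0 in animal 4.

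The 4 genes with the highest mean were Chst4, Sulf1, Hs3st1 and Chst12, and together they made up 63.0% ± 5.15 of the summed CPM of the 53 genes (SD, n = 4, range 59.6% to 70.5%). The remaining 20 genes did not pass. Of these, 8 had no count in any animal, and 3 counts over the 4 libraries together would be 0.171 CPM: Chst5, Chst7, Chst9, Chst13, Hs3st2, Hs3st5, Hs3st6 and Hs6st3. The other 12 had means of 0.0524 to 1.67 CPM. Such a floor allows for counting error alone, because reads that carry no molecular identifier may be copies of 1 molecule.

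**Figure D1:**
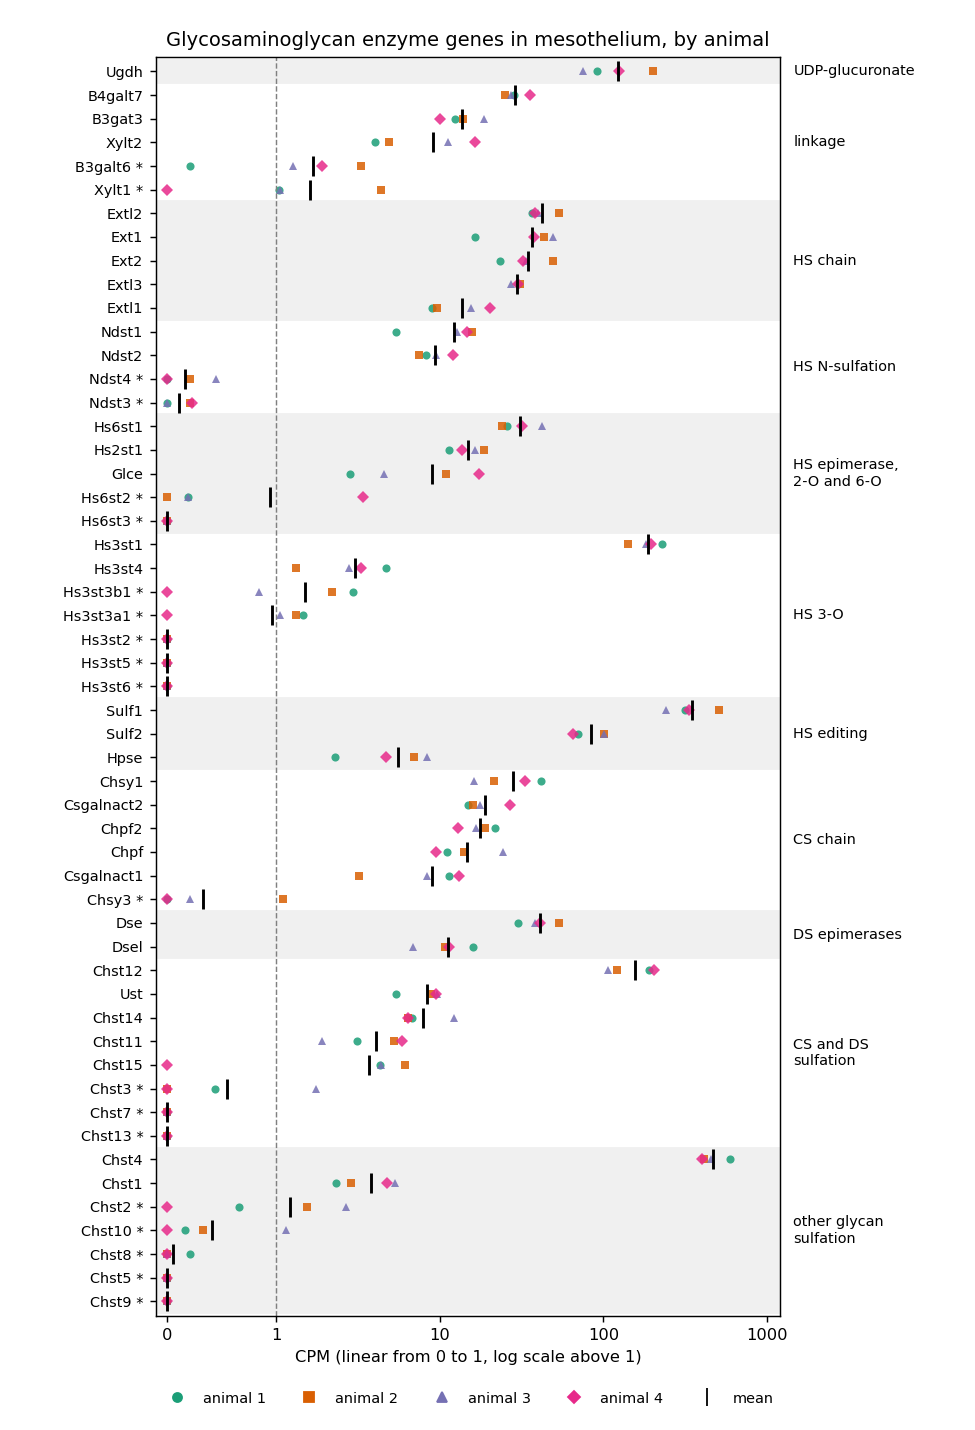
Level of each enzyme gene in CPM (linear from 0 to 1, log scale above 1), with 1 point per animal and a vertical tick at the mean, grouped by step (HS, heparan sulfate; CS, chondroitin sulfate; DS, dermatan sulfate). Genes with an asterisk did not pass the test against 1 CPM (dashed line). Chst4 is highest at 401 to 598 CPM, and 8 genes sit at 0 in all 4 animals.

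Chst4, the highest of the 53 genes, encodes a sulfotransferase that adds sulfate to carbon 6 of N-acetylglucosamine. It is best known for making L-selectin ligands in the high endothelial venules of lymph nodes. Its promoter window is given here with those of a second abundant gene, Hs3st1, and of a relative at 0 counts, Chst5, because these genes lie at opposite ends of the range. Each window holds the 250 bases before and the 50 bases after a transcription start, from RefSeq on GRCm38.p6, 5′ to 3′ on the strand of the gene. Capitals mark matches on either strand to the letters of 4 motifs. The motif bound by AP-1 factors was searched as TGANTCA. The motif bound by TEAD factors was searched as GGAATG. The box of the basal machinery known as TATA was searched as TATAAA. The GC-rich box bound by Sp factors was searched as GGGCGG.
Chst4, chr8:110039285-110039584, minus strand: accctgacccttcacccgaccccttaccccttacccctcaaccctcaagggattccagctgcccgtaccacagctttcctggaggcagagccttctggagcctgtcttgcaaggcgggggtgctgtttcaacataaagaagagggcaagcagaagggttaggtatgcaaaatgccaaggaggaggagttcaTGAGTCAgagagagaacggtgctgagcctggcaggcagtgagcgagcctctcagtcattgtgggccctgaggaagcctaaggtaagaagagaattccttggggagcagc
Hs3st1, chr5:39644582-39644881, minus strand: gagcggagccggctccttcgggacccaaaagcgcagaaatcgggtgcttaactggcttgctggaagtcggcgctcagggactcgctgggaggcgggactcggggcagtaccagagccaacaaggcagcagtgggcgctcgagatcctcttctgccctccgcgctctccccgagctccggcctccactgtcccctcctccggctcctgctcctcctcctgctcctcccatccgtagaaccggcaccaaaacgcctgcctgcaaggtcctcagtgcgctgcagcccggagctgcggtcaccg
Chst5, chr8:111910150-111910449, minus strand: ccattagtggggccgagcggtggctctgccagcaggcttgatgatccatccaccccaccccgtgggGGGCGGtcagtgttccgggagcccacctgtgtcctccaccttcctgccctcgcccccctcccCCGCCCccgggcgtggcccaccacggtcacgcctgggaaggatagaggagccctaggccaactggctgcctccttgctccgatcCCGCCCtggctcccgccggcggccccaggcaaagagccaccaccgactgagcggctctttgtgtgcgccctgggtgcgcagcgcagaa

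The Chst4 window held 1 AP-1 match, which starts 59 bases before the transcription start, and none of the other 3 motifs. The Hs3st1 window held none of the 4 motifs, and the Chst5 window held 3 GC boxes. The windows of Chst4, Hs3st1 and Chst5 each belong to a RefSeq start inside the GENCODE span of the gene. These spans are 110029153 to 110039740, 39613935 to 39755475 and 111889136 to 111910447. Which start these cells use was not tested. No motif overlapped another in these windows. A match to TGANTCA was found in 7.81% of 32851 promoter windows of the same length and in 2 of the 50 windows of the enzyme genes, those of Chst4 and Csgalnact2. A GC box was found in 35.7% of all windows and in 32 of those 50. The TEAD letters were found in 14.7% of all windows and in 9 of the 50. The TATA letters were found in 13.6% of all windows and in 2 of the 50. Matches are described by their letters alone, and no binding was measured.

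RefSeq windows matched 43 of the 53 genes, some with more than 1 start. The ratio of observed to expected CpG had a median of 0.722 over their 50 windows, against 0.384 over all windows. It was 0.721 for the 33 windows of genes that passed the test and 0.725 for the 17 windows of genes that did not. The Chst4 window was unlike most of them, with 5 CpG and a ratio of 0.211. Chst1, a member of the same family, had 1 CpG and a ratio of 0.0482. Hs3st1, Chst12 and Ugdh, the other abundant genes with a window, had ratios of 0.724, 0.783 and 0.718. The plot of CpG content against level shows the highest gene near the low end of the CpG range, beside Chst1 and the 2 windows of Ndst3.

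**Figure D2:**
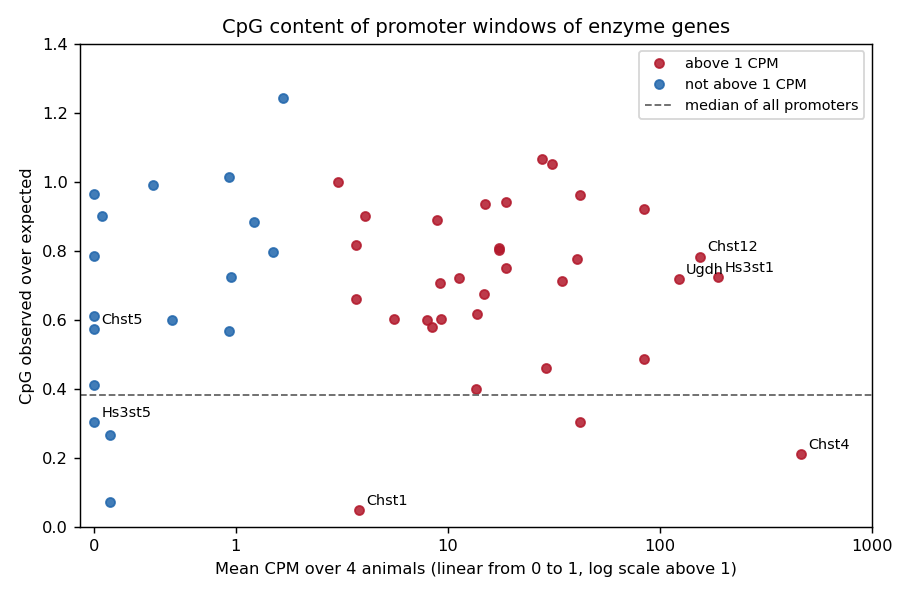
Ratio of observed to expected CpG in the 300-base promoter windows of the enzyme genes (vertical axis) against mean CPM over 4 animals (horizontal axis, linear from 0 to 1, log scale above 1). Each point is 1 window, coloured by whether the gene passed the test against 1 CPM, and the dashed line is the median of all promoter windows, 0.384. Chst4 sits at the right edge at 0.211.

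In animals 1 to 4 Chst4 had 598, 409, 453 and 401 CPM, a mean of 465.5 ± 91.2 CPM (edgeR adjusted p = 4.01e-33). Animal 1 was highest and the other 3 animals lay close together. The mean ranks 301 among all 48425 genes. The gene lies on chromosome 8 at 110029153 to 110039740 on GRCm38, none of its exons overlaps another gene, and none of the 31-base words of its transcripts occurs in another gene. Of the 8 endothelial markers Esam (359 CPM), Kdr (49.2 CPM) and Tek (2.64 CPM) passed, Pecam1 and Vwf did not, and Cdh5, Emcn and Cldn5 were at 0. The part of endothelial RNA in the level of Chst4 was not tested. Chst4 belongs to a family of 6 mouse genes that sulfate carbon 6 of a sugar. Of the 6, 2 passed, beside 24.7% of all genes and 50.9% of protein-coding genes. The second was Chst1, which acts on the galactose of keratan sulfate, at 2.31, 2.87, 5.31 and 4.74 CPM (mean 3.81 ± 1.44 CPM). Chst2, which like Chst4 acts on N-acetylglucosamine, had 0.664, 1.54, 2.66 and 0 CPM and did not pass, and Chst5 was at 0.

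Chst8, Chst9 and Chst10, grouped with Chst4 among the sulfotransferases of other glycans, were at or near 0. Chst10, which makes the HNK-1 epitope of neural glycoproteins, had 0.168, 0.333, 1.15 and 0 CPM, with a mean of 0.413 CPM that was 0.167 CPM without animal 3. Chst8, which sulfates the N-glycans of pituitary hormones, had about 1 count in all, and its relative Chst9 had none.

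Hs3st1 carried nearly all 3-O-sulfotransferase RNA. This enzyme adds the rare 3-O-sulfate that completes the antithrombin-binding site of heparan sulfate. It had 228, 142, 183 and 197 CPM in animals 1 to 4, a mean of 187.7 ± 35.7 CPM and rank 883 among all genes (edgeR adjusted p = 5.01e-29). Animal 2 was lowest, and the highest animal had 1.61 times its level. Hs3st1 made up 96.2% to 98.4% of the summed CPM of the 7 genes of its family. The gene lies on chromosome 5 at 39613935 to 39755475, and 2.47% of its 31-base words occur in other genes.

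The only other member of that family to pass was Hs3st4, best known from brain, at 4.67, 1.33, 2.80 and 3.29 CPM (mean 3.02 ± 1.38 CPM, edgeR adjusted p = 0.00464). This call was lost without animal 1 (mean 2.47 CPM, adjusted p = 0.0771) and in DESeq2 (adjusted p = 0.0514). Hs3st3b1 had 2.94, 2.20, 0.846 and 0 CPM and Hs3st3a1 1.47, 1.32, 1.06 and 0 CPM. Both were lowest in animal 4 and neither passed. They make a different 3-O-sulfated site from that of Hs3st1. They are also neighbours on chromosome 11, with 513 kb and 1 coding gene between them, the only enzyme genes of the 53 that lie within 1 Mb of each other. Their levels are uncertain, since 44.5% of the 31-base words of Hs3st3a1 and 9.81% of those of Hs3st3b1 occur in other genes, those of Hs3st3a1 mostly in F930015N05Rik on the opposite strand.

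Both extracellular sulfatases were abundant. Sulf1 and Sulf2 remove 6-O-sulfate from heparan sulfate outside the cell and thereby change its binding of growth factors. Sulf1 had 315, 511, 243 and 333 CPM (mean 350.2 ± 114 CPM, rank 418), with animal 2 at 1.72 times the mean of the others. Sulf2 had 70.1, 101, 101 and 65.6 CPM (mean 84.4 ± 19.2 CPM), with animals 2 and 3 above animals 1 and 4. The fibroblast list was also highest in animal 2 and next in animal 3. So was the mesothelial list, at 14354, 15540, 14425 and 13671 CPM in animals 1 to 4, with animals 1 and 3 close together. The markers of that list did not share 1 order over the animals. Krt19 had 1749, 3120, 3091 and 1239 CPM, and Upk3b had 4448, 3920, 3990 and 4184 CPM. Sulf1 was lowest in animal 3. The part of either cell type in these levels was not tested. Per kilobase of transcript Sulf1 exceeded Sulf2 in 4 of 4 animals, by 1.73 ± 0.52 on the log2 scale.

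Hpse, the heparanase that cuts the chain, had 2.20 ± 1.05 CPM per kb, against 31.1 ± 7.07 CPM per kb for Sulf2. Hpse had 2.28, 6.97, 8.37 and 4.67 CPM (mean 5.58 ± 2.67 CPM, edgeR adjusted p = 9.30e-07), with animal 1 lowest.

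Genes for the body of the heparan sulfate chain summed to 53.05 ± 11.7 CPM per kb. All 5 chain-forming genes passed. Ext1 and Ext2 encode the co-polymerase, and each is required for it. Ext1 had 16.4, 43.3, 49.2 and 37.7 CPM and Ext2 23.3, 48.9, 33.8 and 32.4 CPM, and animal 1 was lowest for both. Extl3, which adds the first N-acetylglucosamine of the chain, was the steadiest of the genes that passed, at 29.9, 30.99, 27.2 and 30.2 CPM (mean 29.6 ± 1.63 CPM). Extl2, which can cap the linkage region, had 36.4, 53.6, 39.8 and 38.3 CPM, with animal 2 highest. Extl1 had 13.6 ± 5.36 CPM.

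The first modification of heparan sulfate is made by the Ndst enzymes, whose genes summed to 6.89 ± 1.77 CPM per kb, below the chain-forming genes in every animal. Ndst1, which replaces acetyl groups by sulfate on glucosamine, had 5.44, 15.8, 12.7 and 14.6 CPM, with animal 1 lowest. Its relative Ndst2 had 8.20, 7.51, 9.56 and 12.1 CPM, within the range of Ndst1. Ndst3 and Ndst4 had 2 and 3 counts in all, at or below the 3 counts used as a floor. Hs2st1, the single 2-O-sulfotransferase, had 15.0 ± 3.15 CPM.

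Glce, the epimerase that turns glucuronic into iduronic acid, varied most among the heparan sulfate genes that passed. It had 2.83, 10.97, 4.59 and 17.3 CPM, and the highest animal had 6.11 times the level of the lowest. Among the 6-O-sulfotransferases Hs6st1 had 25.8, 23.9, 42.3 and 31.8 CPM, while Hs6st2 had 0.191, 0, 0.193 and 3.41 CPM and did not pass. Hs6st3 was at 0.

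Summed over each step and divided by transcript length, 3-O-sulfotransferase RNA stood above N-sulfotransferase RNA in every animal. The ratio of these summed CPM per kb ranged from 15.9 to 43.5. The sums themselves were 156.5 ± 29.9 for 3-O-sulfation, 13.7 ± 3.17 for the epimerase with 2-O- and 6-O-sulfation, and 6.89 ± 1.77 for N-sulfation, and the animals of these 3 steps did not overlap. The enzymes differ in activity and in how often they act on a chain, and RNA levels do not measure either.

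**Figure D3:**
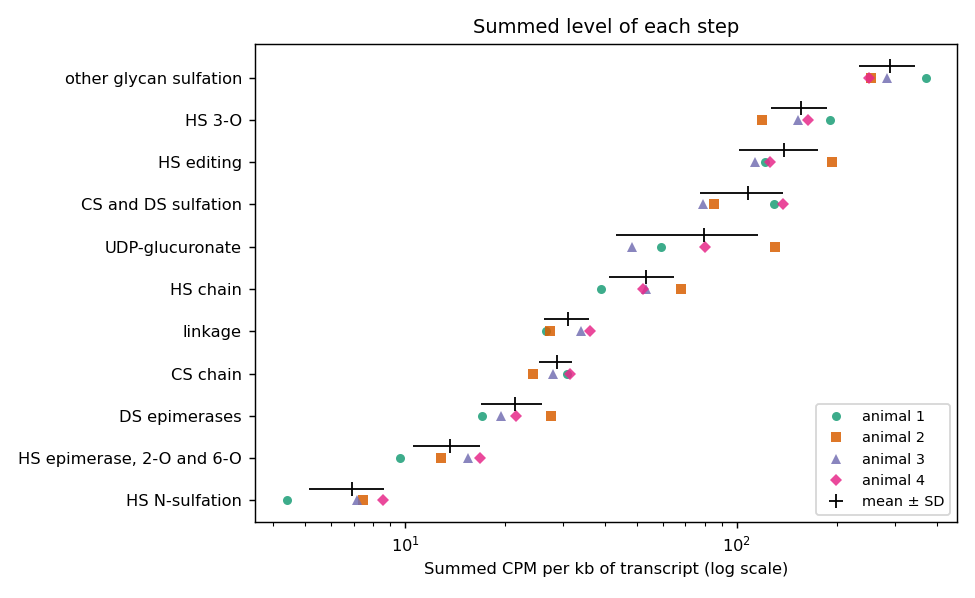
Summed CPM per kb of transcript (log scale) of the genes of each step, with 1 point per animal and the mean ± SD (n = 4) drawn above the points. Within heparan sulfate (HS), the 3-O step lies at 156.5 and the N-sulfation step at 6.89, and their animals do not overlap.

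The shared first steps were supplied unevenly. Ugdh, which makes the UDP-glucuronate used by every chain with glucuronic acid, had 91.7, 202, 75.1 and 124 CPM (mean 123.3 ± 56.5 CPM). Animal 2 stood at 2.09 times the mean of the others. In the linkage region 3 of 5 genes passed. B4galt7, which adds the first galactose, led with 28.4, 24.9, 27.3 and 35.4 CPM, with animal 4 highest. B3gat3, which adds the closing glucuronic acid, had 13.8 ± 3.68 CPM.

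The xylosyltransferases start heparan and chondroitin chains on their core proteins. Xylt2 had 4.03, 4.92, 11.2 and 16.4 CPM, with animals 3 and 4 above animals 1 and 2, and it passed. Xylt1 had 1.05, 4.39, 1.06 and 0 CPM and did not pass, and its levels overlapped those of Xylt2 before division by length. B3galt6, which adds the second galactose, had 0.210, 3.32, 1.27 and 1.897 CPM and did not pass (edgeR adjusted p = 0.517). Animal 2 was highest and animal 1 lowest.

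Genes that build the chondroitin chain passed in 5 of 6 cases. Chsy1, a synthase, had 41.3, 21.4, 16.1 and 33.1 CPM, while its paralog Chsy3 had 6 counts in all. Of the polymerising partners Chpf had 11.1, 14.1, 24.3 and 9.52 CPM and Chpf2 had 21.6, 18.99, 16.6 and 12.99 CPM, and the ranges overlapped. The level of Chpf2 is uncertain, since 41.9% of its 31-base words occur in Smarcd3, which overlaps it on the opposite strand, and it is not stated whether the libraries kept strand. Csgalnact2 and Csgalnact1 add the first N-acetylgalactosamine. Csgalnact2 had 14.96, 15.9, 17.7 and 26.7 CPM, all above the levels of Csgalnact1 at 11.3, 3.22, 8.41 and 13.1 CPM. Animal 2 was lowest for Csgalnact1 and animal 4 highest for both.

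Both dermatan epimerases passed. Dse had 30.0, 53.8, 38.2 and 41.0 CPM and its relative Dsel 15.996, 10.8, 6.85 and 11.4 CPM, with no overlap between the genes. Dse was highest in animal 2, as were the summed fibroblast and the summed mesothelial markers. Within the mesothelial list Krt19 was highest in that animal and Upk3b was lowest in it. Dcn, whose product carries a dermatan or chondroitin chain, makes up most of the fibroblast sum and was itself highest in animal 2. The part of either cell type in the level of Dse was not tested.

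Of the 8 sulfotransferase genes for chondroitin and dermatan 5 passed, and Chst12 was the highest of them per length. This 4-O-sulfotransferase had 191, 120, 107 and 204 CPM (mean 155.5 ± 49.04 CPM, rank 1095, edgeR adjusted p = 3.60e-27), with animals 1 and 4 above animals 2 and 3. The summed fibroblast markers were lower in animals 1 and 4. The summed mesothelial markers were lowest in animal 4, and animals 1 and 3 were close, at 14354 and 14425 CPM. Within that list Krt19 was lower in animals 1 and 4, and Upk3b was higher in them. The part of either cell type in the level of Chst12 was not tested. The gene lies on chromosome 5 at 140505550 to 140525724 and shares no 31-base word with another gene. Chst11, a second chondroitin 4-O-sulfotransferase, had 3.14, 5.28, 1.902 and 5.91 CPM, and Chst13 was at 0.

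Chst14, which acts on dermatan, had 6.78, 6.45, 12.2 and 6.40 CPM. Ust, the 2-O-sulfotransferase for uronic acids, had 8.39 ± 1.998 CPM. Chst15, which adds a second sulfate to N-acetylgalactosamine, had 4.32, 6.15, 4.38 and 0 CPM. Of its 31-base words 17.4% occur in other genes, most in Gm10584 on the opposite strand. It passed in edgeR (adjusted p = 0.00206) and not in limma with voom weights (adjusted p = 0.814). Of the 6-O-sulfotransferases Chst3 and Chst7, Chst3 had 0.436, 0, 1.76 and 0 CPM and did not pass, and Chst7 was at 0.

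Genes for 1 step, or for parallel steps, were compared within each animal as differences in log2((CPM + 0.5) per kb). The lengths are means over coding transcripts of GENCODE M21. Of 15 pairs, 12 had the same order in 4 of 4 animals. The test was an exact permutation of the signs of the 4 differences, two-sided, whose smallest p is 0.13. It gave that value for each of the 12, so none can pass a threshold of 0.05.

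Hs3st1 exceeded Hs3st3b1 by 8.89 ± 1.30, and Chst12 exceeded Chst11, with the coded difference of Chst11 minus Chst12 at -6.98 ± 0.59. Hs6st1 exceeded Hs6st2 by 5.18 ± 1.31 and Chsy1 exceeded Chsy3 by 4.97 ± 1.24. For Xylt1 minus Xylt2 the difference was -4.64 ± 2.10. In these pairs other than Chst11 and Chst12 the lower gene was at 0 in at least 1 animal, so the size of the difference depends on the added 0.5 CPM.

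Smaller differences in the same direction in every animal were those of Dse over Dsel at 3.30 ± 0.68, Chst14 over Chst11 at 2.38 ± 1.05 and Extl2 over Extl3 at 1.53 ± 0.23. Csgalnact1 minus Csgalnact2 was -1.60 ± 0.73. Glce minus Dse, the epimerase of heparan sulfate against that of dermatan sulfate, was -3.04 ± 0.88.

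Ext1 minus Ext2 was -2.48 ± 0.45 per length. Their transcript lengths were 7.66 and 1.35 kb, and without division by length the difference was 0.02. Ndst1 and Ndst2 differed by 0.16 ± 0.65 (Ndst1 higher in 3 of 4 animals, exact permutation p = 0.625). Chpf minus Chpf2 was -0.21 ± 0.62 (Chpf higher in 1 of 4 animals, exact permutation p = 0.5). Neither pair differed by more than its spread between animals. Chst3 and Chst7 had too few counts for an order.

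**Figure D4:**
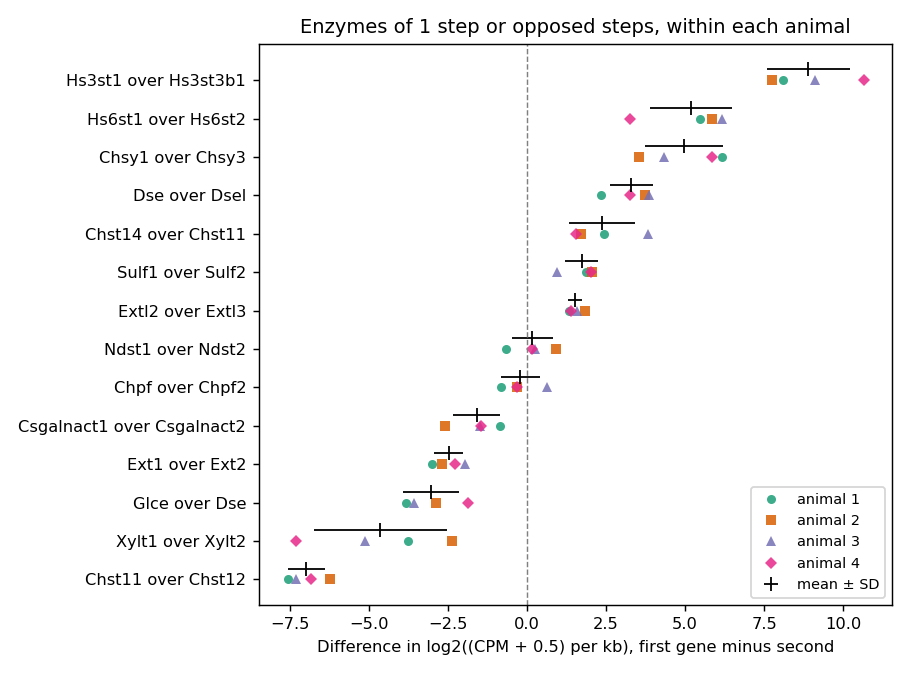
Within-animal difference of 14 gene pairs in log2((CPM + 0.5) per kb), first gene minus second, with 1 point per animal and the mean ± SD (n = 4) above the points. All 4 animals lie on 1 side of 0 (dashed line) except for Ndst1 over Ndst2 and Chpf over Chpf2. The pair of Chst3 and Chst7 is not drawn because Chst7 had no count.

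Per length the order of the 5 most abundant genes was Chst4 at 287.3 ± 56.3, Hs3st1 at 155.0 ± 29.5, Sulf1 at 105.3 ± 34.2, Chst12 at 100.4 ± 31.7 and Ugdh at 79.5 ± 36.4 CPM per kb. Chst4 stood apart from the next gene by more than the spread between animals. Sulf1 and Chst12 did not differ beyond theirs, and with the longest transcript in place of the mean Chst12 came before Sulf1, at 66.7 and 62.6 CPM per kb. By that length Ugdh had 20.03 CPM per kb, close to Sulf2 at 18.4 CPM per kb.

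The spread between animals was close to that of other genes. The SD of log2(CPM + 0.5) had a median of 0.44 over the 33 genes that passed and 0.39 over all genes that passed in the table. In bins of like level, 19 of the 33 lay above the median of all genes in their bin. Those above the 90th percentile of their bin were Chst15, Ext1, Glce and Ugdh, with SDs of 1.73, 0.70, 1.10 and 0.62. Extl3, at 0.08, was the single gene below the 10th percentile. Of the 33, 4 differed by over 4 times between the highest and lowest animal: Chst15, Glce, Xylt2 at 4.07 times and Csgalnact1 at 4.06 times. Of the 33 genes, 6, 9, 9 and 9 were highest in animals 1 to 4, and 13, 6, 7 and 7 were lowest. Animal 1 thus had the most genes at their lowest level and the fewest at their highest, a difference that was not tested. The same count was not made over all genes that passed.

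**Figure D5:**
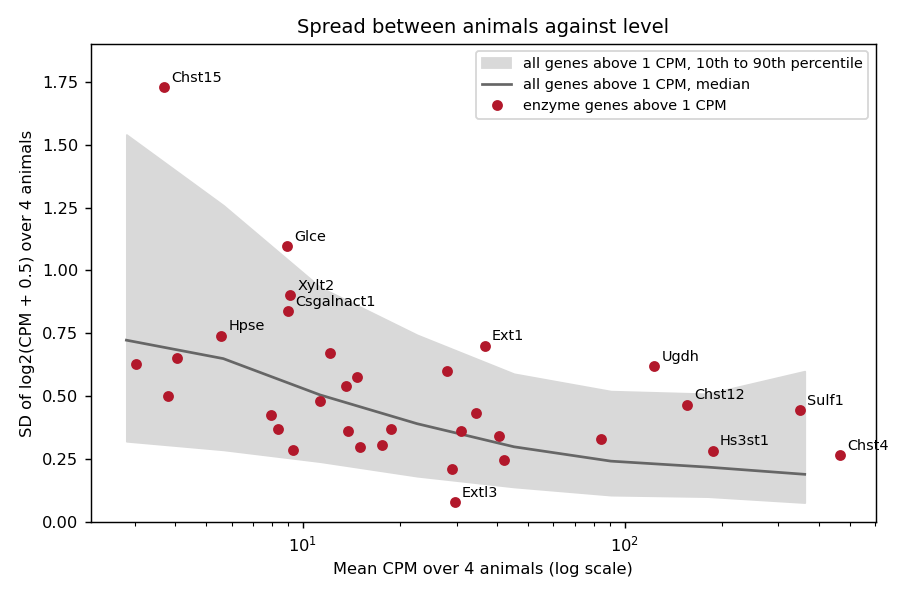
SD of log2(CPM + 0.5) over 4 animals (vertical axis) against mean CPM (horizontal axis, log scale) for the 33 enzyme genes above 1 CPM. The line and the shaded band give the median and the 10th to 90th percentile of all genes above 1 CPM in bins of level. Chst15, at 1.73, and Glce, at 1.10, lie above the band, and Extl3, at 0.08, lies below it.

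Genes that feed and carry these chains were counted from lists outside the symbol rule, and 56 of their 68 genes lay above 1 CPM, beside the background of 24.7% of all genes and 50.9% of protein-coding genes. For the sulfate donor PAPS 7 of 8 passed. The synthases Papss1 and Papss2 had 64.6 ± 11.7 and 14.6 ± 4.57 CPM, the Golgi PAPS transporter Slc35b2 had 37.8 ± 8.17 CPM and the sulfate transporter Slc26a2 5.46 ± 2.45 CPM. All 13 genes for nucleotide sugars passed, led by Gfpt2, an entry enzyme of hexosamine synthesis, at 128.03, 312, 86.1 and 99.4 CPM. Gfpt2 was highest in animal 2, the animal in which Ugdh and Sulf1 were highest. Fam20b and Pxylp1, the kinase and phosphatase of the linkage xylose, had 18.2 ± 6.52 and 12.9 ± 1.04 CPM.

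The core proteins carry the chains. Of 14 genes for heparan sulfate core proteins 11 passed, led by Sdc4 at 4457 ± 716 CPM, the glypican Gpc3 at 1701 ± 495 CPM and Sdc2 at 348 ± 67.7 CPM, and Gpc5 was at 0. Of 15 genes for chondroitin and dermatan core proteins 8 passed, a share near the 50.9% of protein-coding genes. Dcn led these, followed by the testican Spock2 at 382.7 ± 139 CPM and thrombomodulin (Thbd) at 279 ± 24.5 CPM, and the cartilage and brain genes Acan and Bcan were at 0.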

How the data were processed

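RNA-seq libraries of sorted peritoneal mesothelium from 4 mice were analysed as 1 group, numbered as in the sample titles and described in the study's design as separate animals. The authors deposited estimated counts, with genes in rows and animals in columns. Per the submitters' processing notes, kallisto 0.43.1, edgeR 3.24.3, limma 3.38.3 and GRCm38.p5 were used, with no role given for each. How the authors summed transcripts to genes, and whether the kit kept strand, is not stated. Of the nonzero deposited values 99.75% to 99.95% per animal were not whole (tolerance 1e-06).

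CPM is the value over its column total scaled to 1000000. For the test, estimated counts were rounded, and edgeR 4.0.16 under R 4.3.3 tested each of 48425 genes for a level over 1 CPM. The test was one-sided, p-values were adjusted over all genes by Benjamini-Hochberg, and the threshold was 0.05. The statistic was computed from fitted and null deviances, since the packaged function takes no intercept-only design, and was tested on simulated data. Alternatives were other scalings, a count filter, DESeq2 1.42.0, limma 3.58.1, a level of 2 CPM and leaving out each animal. With column totals of 4090224 to 4569578, 3 counts in 1 library are 0.657 to 0.733 CPM. Positions, lengths and shared 31-base words came from GENCODE M21 (GRCm38). The edgeR p-values compare the level of each gene with 1 CPM and are not a measure of spread. Their error combines counting error with the spread between these 4 animals, with information shared over all genes.

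The 53 genes, the lists and the pairs were chosen with earlier results of these data known. Every gene of the symbol rule is accounted for. Genes that passed are named with mean and SD, or with the value in each animal for the highest gene of each step, genes of the pairs and genes differing over 4 times between animals. Of each pathway list the 2 or 3 highest genes and those at 0 are named, and of each marker list the highest and the defining markers at 0. Some genes these rules would name are not reported here. Chosen after values were seen were the promoter windows and motifs, and the ratio of the summed 3-O and N steps. So were further genes outside these rules: Papss2, Slc26a2, Gfpt1, Ugp2, Naglu, Hgsnat, Sgsh, Hyal1, Hyal2, Arsg and Kdr. Also chosen then were further cell-type markers, and values by animal of some low genes.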

Additional observations from a re-analysis of the deposited data

Results flagged for a closer look

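The following values are set out here because 1 animal lay far from the other 3 by Dixon's criterion for groups of 4. Chance gives about 1 such gene in 20, and 45 enzyme genes had a count. Chst14, the dermatan 4-O-sulfotransferase, had 12.2 CPM in animal 3 against 6.40 to 6.78 CPM in the others. Hs6st2, a 6-O-sulfotransferase, had 3.41 CPM in animal 4 against 0 to 0.193 CPM in the others. Chst8 had 0.209 CPM in animal 1, which is about 1 count, and 0 in the others. A gene with a count in 1 animal alone always meets the criterion, so this value carries no weight.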

How the results depend on the processing

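The count of 33 enzyme genes above 1 CPM was 29 to 33 under every alternative run, and 510 of 517 single-gene values stayed on the same side of the threshold. The calls lost were Hs3st4 (DESeq2, without animal 1, and at 2 CPM), Chst15 (limma with voom weights, adjusted p = 0.814, and at 2 CPM), and Chst1 and Chst11 at 2 CPM. The 56 listed pathway genes were 56 or 57 under alternatives chosen after seeing the data. Pairs with the same order in every animal numbered 11 to 14, and 114 of 120 single differences kept their sign. Those that changed sign were Ext1 minus Ext2 without division by length (0.0223), Ndst1 minus Ndst2 with the longest transcript (-0.45) and on leaving out 1 animal (-0.0878 without animal 2 to 0.438 without animal 1), Chpf minus Chpf2 with the longest transcript (0.38), and Chst3 minus Chst7 without division by length (0.77) and with a pseudocount of 0.1 CPM (0.60). The change without animal 2 had a cause that was not tested. The median SD between animals was 0.471 with TMM and 0.398 to 0.442 on leaving out 1 animal. No paired analysis was possible because the series has 1 group, and so no samples of another group to pair by number. At this depth a gene under 0.171 CPM over the group cannot be told from 0.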

Other observations

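Lysosomal enzymes that take glycosaminoglycans apart were measured in nearly full number. Of 16 genes 15 lay above 1 CPM by edgeR's test, beside 24.7% of all genes and 50.9% of protein-coding genes. The hexosaminidase subunit Hexa had 110.1 ± 11.9 CPM, and the galactosidase Glb1 had 91.3 ± 7.89 CPM. Enzymes specific to heparan sulfate were lower than Hexa and Glb1. Naglu had 37.7 ± 12.1 CPM, Hgsnat 21.2 ± 7.71 CPM and Sgsh 13.6 ± 5.82 CPM. Before division by length, Naglu lay above the median of the 16 genes (27.5 CPM), and Hgsnat and Sgsh lay below it. The hyaluronidases Hyal2 and Hyal1 had 45.3 ± 5.26 and 10.1 ± 2.02 CPM. Arsg was the exception, at 0.804 ± 0.672 CPM. The median over the 16 genes was 27.5 CPM, against 2.88 CPM over all protein-coding genes.

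In the nucleotide sugar list Gfpt1, an entry enzyme of hexosamine synthesis, had 16.2, 63.2, 25.7 and 39.1 CPM in animals 1 to 4. Animal 2 was highest and animal 1 lowest. Ugp2, which makes the UDP-glucose that Ugdh oxidises, had 91.4, 111, 89.0 and 109.8 CPM, a narrower range than that of Ugdh.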
